A study of Ovis aries with 15 samples.

Results

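The 10 genes described here are markers of macrophages and other myeloid cells: CD68, C1QA, C1QC, EMR1, CD14, CD86, MRC1, FCGR3A, DAP12 and ITGAM. They were chosen by name, and each was looked up by its gene name in the promoter tables deposited for 3 histone marks, which together list 18460 promoters. All 10 were found in at least 1 table: 7 of the 13222 H3K27ac promoters, 6 of the 12922 H3K4me3 promoters and 7 of the 6334 H3K27me3 promoters were members. FCGR3A, CD14 and ITGAM were in all 3 tables, CD68 and MRC1 in those of H3K27ac and H3K4me3, DAP12 in those of H3K27ac and H3K27me3, and C1QA in those of H3K4me3 and H3K27me3. CD86 was listed for H3K27ac alone, and C1QC and EMR1 for H3K27me3 alone.

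The study set perirenal fat of lambs, 80 days after birth, against that of fetuses, 132 days after conception, to follow chromatin while this depot changes from brown to white fat. All animals were purebred merino sheep labelled as wild type, and the treatment protocol in the labels states that none was given. The growth protocol gives the lambs' age as 89 ± 7 days. A tag, VEH, ends the title of every lamb immunoprecipitation library and of no fetal one, so what it stands for cannot be told apart from stage. The labels do not give sex. H3K27ac and H3K27me3 were measured in 2 lambs and 2 fetuses, and H3K4me3 in 3 lambs and 2 fetuses, by immunoprecipitation of native chromatin cut with micrococcal nuclease. Input chromatin was pooled per stage, and the tables used here hold no input column, so no background was subtracted.

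Macrophages live in all fat depots, where they take up dead cells, lipid and debris and take part in the remodelling of the tissue. H3K27ac and H3K4me3 lie at promoters that are active or ready for use, and H3K27me3, laid down by Polycomb complexes, lies at promoters kept silent. In whole tissue a promoter's value adds up all cells, so the share of cells that carry a mark and the amount of mark per cell cannot be told apart. Marks of active and of silent promoters, counted at the same gene, can also come from different cells.

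A library held between 5061861 and 6257855 promoter reads for H3K27ac, between 2476065 and 17541582 for H3K4me3 and between 324662 and 430345 for H3K27me3. The 2 smallest H3K4me3 libraries were lambs 2 and 3. Members held 142 to 723 reads per library for H3K27ac, 95 to 1888 for H3K4me3 and 10 to 156 for H3K27me3. All 10 adipocyte markers looked up were in the H3K27ac and H3K4me3 tables. The median H3K27ac value of these markers stood at percentile 60.8 of the table in lambs and 74.3 in fetuses. Every promoter listed reached a deposited value of at least 50.2, 50.7 or 51.5 in some library of the H3K27ac, H3K4me3 or H3K27me3 table, so a member not in a table has no value here and is not counted as 0. Values below are the deposited promoter signal after TMM scaling (trimmed mean of M-values), which makes most promoters equal on average.

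In every mark weak and strong promoters shifted in opposite directions between stages, as the plot of change against level shows. For H3K4me3, the median log2 change, lamb minus fetus, was 1.16 over the 3230 weakest promoters and -0.54 over the 3231 strongest. For H3K27ac these medians were 0.28 over the 3305 weakest and -0.31 over the 3306 strongest, and for H3K27me3 they were 0.24 over 1583 and -0.37 over 1584. Each member is therefore given 3 ways: the change under TMM scaling, the change after cyclic loess, which removes shifts that depend on level (called the level-adjusted fit), and its percentile among the 500 promoters nearest to it in mean level. The 2 fits used limma, with p-values adjusted over the whole table by the Benjamini-Hochberg method and called at 0.05. Changes are on the log2(value + 1) scale with their standard errors (SE). Changes under the deposited scaling, given below as an alternative, are not centred. There the median change of all promoters was -0.30 for H3K27ac, -1.28 for H3K4me3 and -0.057 for H3K27me3.

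**Figure D1:**
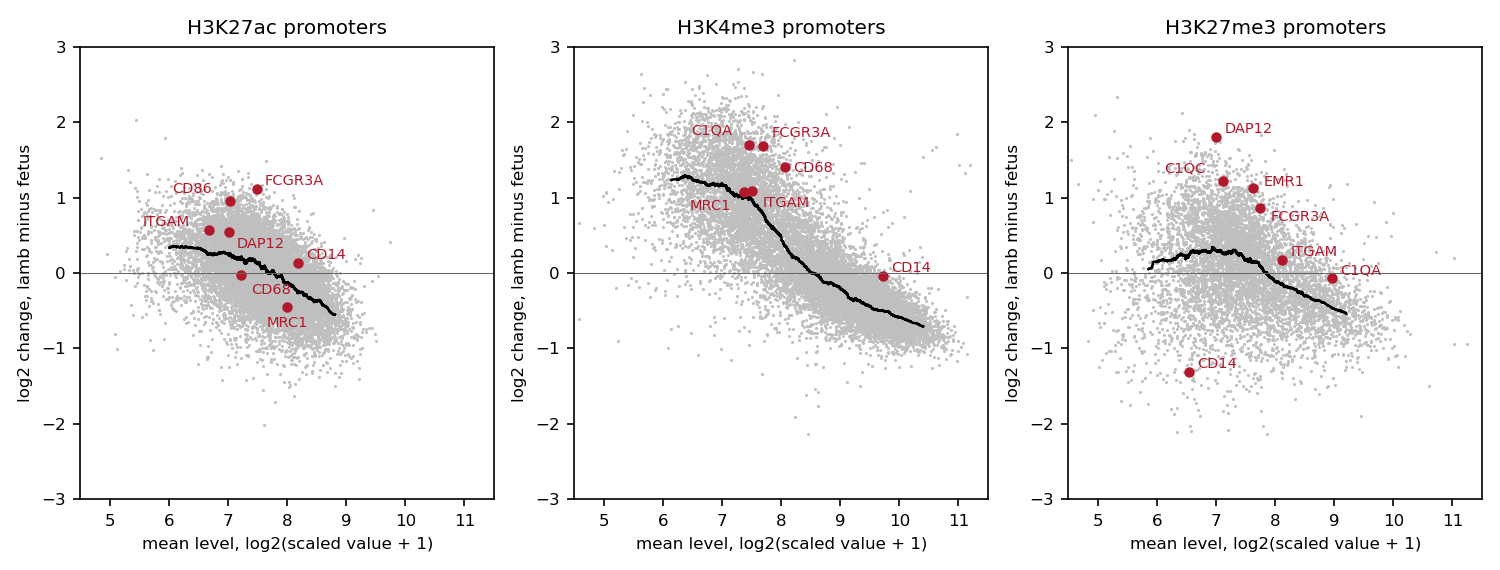
Log2 change, lamb minus fetus, against mean level, log2(scaled value + 1), of each promoter (grey), with a running median (black line) and the members in red, for H3K27ac, H3K4me3 and H3K27me3. The line falls with level over most of each panel, most steeply for H3K4me3, and FCGR3A lies above it in all 3; 7 H3K4me3 and 4 H3K27me3 promoters lie outside the axes.

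Under TMM scaling FCGR3A, CD86, CD68, C1QA, C1QC, DAP12 and EMR1 had at least 1 mark that was called higher in lambs. CD14 and MRC1 had a mark that was lower, and no call was made for ITGAM. The calls of CD68, C1QA, C1QC and MRC1 did not pass in the level-adjusted fit (limma adjusted p = 0.156, 0.350, 0.135 and 0.154). FCGR3A, a low-affinity receptor for antibody-coated targets, was higher in lambs for all 3 marks under TMM scaling. In the level-adjusted fit its H3K27ac passed, while its H3K4me3 and H3K27me3 did not (limma adjusted p = 0.272 and 0.0739). H3K27me3 was called higher in lambs at 4 of 7 members under TMM scaling, where 4.42% of all promoters were. The level-adjusted fit called 2 of 7 higher, where 2.34% of all promoters were. DAP12, called in both fits, had 3.44 times the fetal value in the authors' deposited table. H3K27me3 was lower at CD14 in both fits. The calls rest on few animals, and each was lost when some 1 library was left out, as given with each gene.

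For H3K27ac, 2 of 7 members were called higher in lambs and 1 lower, where 11.4% of all promoters were called higher and 17.7% lower. In the level-adjusted fit 2 of 7 were called higher and 0 lower, where 8.64% of all promoters were called higher and 10.2% lower. With 0 members lower there, 3 of 7 had an unadjusted p under 0.05, CD86, FCGR3A and CD14, all with higher values in lambs. For H3K4me3, 3 of 6 members were called higher and 0 lower, where 8.33% of all promoters were called higher and 1.9% lower. No member with a lower value passed there, and 5 of 6 members had an unadjusted p under 0.05, all with higher values in lambs. In the level-adjusted fit 0 of 6 members and 0% of all promoters were called in either direction by limma, while 3 members and 1738 promoters had an unadjusted p under 0.05. For H3K27me3, 4 of 7 members were called higher and 1 lower, where 4.42% of all promoters were called higher and 8.83% lower. In its level-adjusted fit 2 of 7 were called higher and 1 lower, where 2.34% of all promoters were called higher and 3.88% lower.

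Groups that did not overlap were common in the tables. Both lambs stood above both fetuses at 4 of 7 members for H3K27ac, where 33% of all promoters did so, and at 4 of 7 for H3K27me3, where 30.5% did so. For H3K4me3 all 3 lambs stood above both fetuses at 5 of 6 members, where 25.7% of all promoters did so. Promoters of like level to these 5 had median changes of 0.47 to 1.04, so that share is not one of promoters of like level. The lambs stood below the fetuses at 1 member for H3K27ac (33.5% of all promoters) and at 1 for H3K27me3 (29.3%). The median change of the members was 0.55 for H3K27ac, 1.25 for H3K4me3 and 0.86 for H3K27me3, against 0.018, 0.0034 and 0.022 over all promoters of the tables. Set against promoters of like level, the members' median was 0.29, 0.56 and 0.76 higher.

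**Figure D2:**
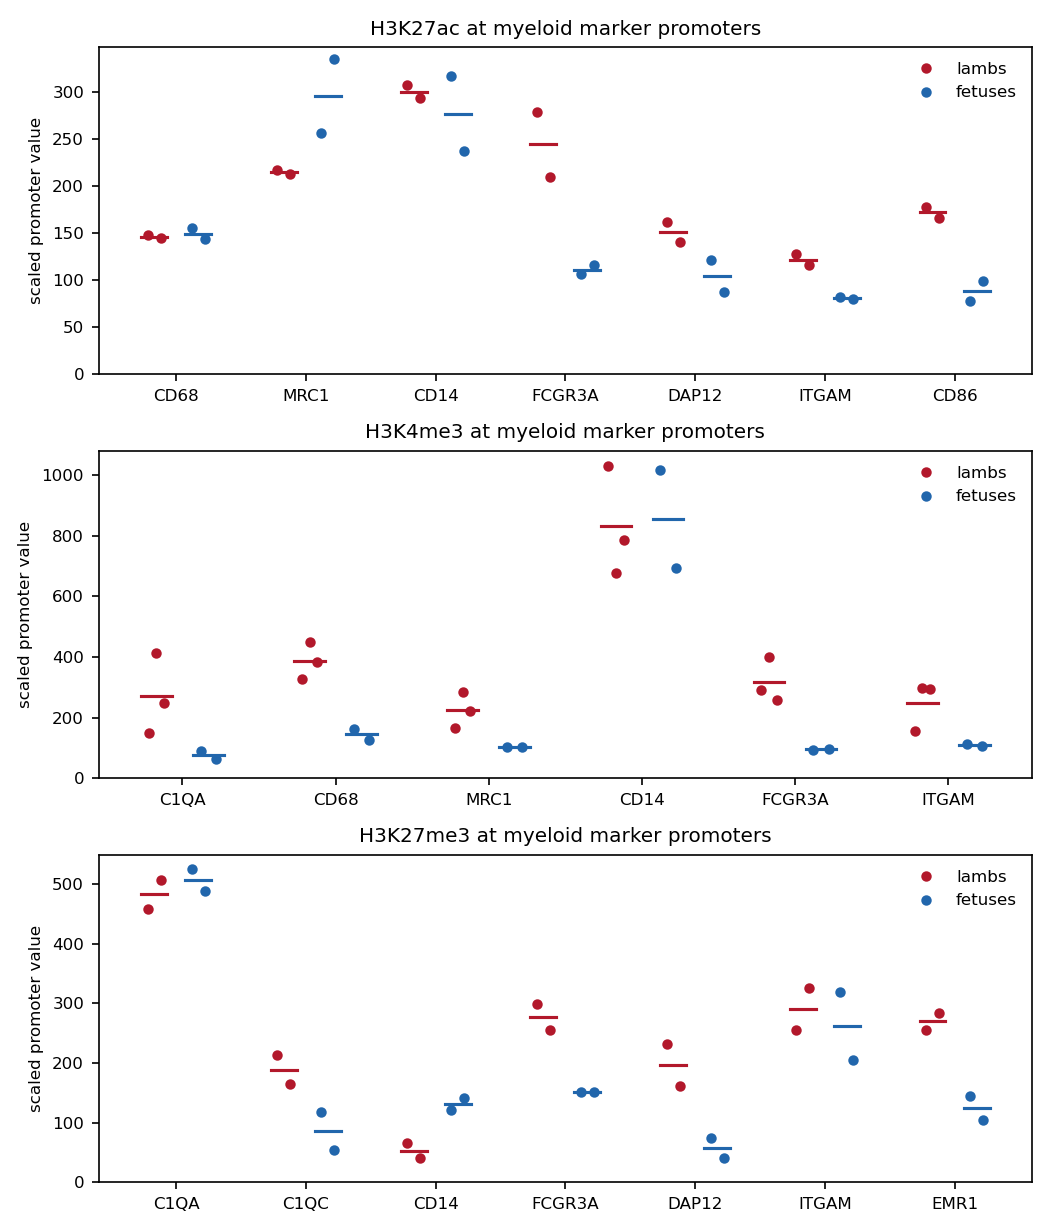
Scaled promoter value of each member in each library, with lambs (red) left of fetuses (blue) and bars at the group means; each panel is a mark and starts at 0. At FCGR3A the lambs lie above the fetuses in all 3 panels, and at CD14 they lie below them for H3K27me3 while the groups overlap for the other marks.

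C1QA and C1QC encode chains of C1q, the first component of the classical complement pathway, which macrophages make, and they are neighbours in the sheep genome. H3K4me3 at C1QA was 151, 413 and 250 in lambs 1 to 3 and 90.0 and 65.0 in fetuses 1 and 2. All lambs were above both fetuses, but the lambs spread more widely than the gap between the lowest lamb and the higher fetus. The change was 1.69 ± 0.46 (SE), with an adjusted p of 0.0207, at percentile 92.8 of promoters of this level, whose median change was 1.04. In the level-adjusted fit it was 0.74, with an adjusted p of 0.350. The call was lost without lamb 2 (adjusted p = 0.304), without lamb 3 (0.398) and under the deposited scaling, where the change was 0.42 (0.344).

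H3K27me3 at C1QA was among the strongest of the table, at percentile 95.5 in lambs and 90.8 in fetuses. It was 459 and 507 in lambs and 524 and 488 in fetuses, so the groups overlapped. The change was -0.069 ± 0.19 (SE), with an adjusted p of 0.833, and its sign turned to 0.044 when libraries were scaled to their column totals. The level-adjusted change was 0.37 (adjusted p = 0.253), at percentile 84.6 of like promoters. C1QA combined strong H3K27me3 at both stages with H3K4me3 that was weak in fetuses, at percentile 12.4 of its table.

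At C1QC, H3K27me3 was 213 and 165 in lambs, from 65 and 40 reads, and 118 and 53.9 in fetuses, from 35 and 16 reads. Both lambs were above both fetuses. The change was 1.22 ± 0.39 (SE), with an adjusted p of 0.0392, and 0.95 with an adjusted p of 0.135 in the level-adjusted fit, at percentile 96.6 of like promoters. The first of these calls was lost without any 1 of the 4 libraries, with adjusted p of 0.0549 without lamb 1, 0.213 without lamb 2, 0.0568 without fetus 1 and 0.552 without fetus 2. EPHA8, which lies beyond C1QA on the other side from C1QC, also had more H3K27me3 in lambs, with a mean of 343 in lambs and 200.1 in fetuses (change 0.78, adjusted p = 0.0402).

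CD68 is a glycoprotein of the endosomes and lysosomes of phagocytes. Its H3K4me3 was 327, 449 and 383 in lambs and 164 and 127 in fetuses, and each lamb was well above both fetuses. The change was 1.40 ± 0.34 (SE), with an adjusted p of 0.00925, at percentile 96 of promoters of like level. The level-adjusted change was 0.97, with an adjusted p of 0.156. Without lamb 2 the adjusted p was 0.171, and without lamb 3 it was 0.287. Under the deposited scaling the change was 0.12, with an adjusted p of 0.827, where the median of all H3K4me3 promoters was -1.28.

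H3K27ac at CD68 was 148 and 144 in lambs and 155 and 144 in fetuses. These values overlapped, with a change of -0.032 ± 0.18 (SE), an adjusted p of 0.912, and a sign that turned to 0.060 with column totals. The level-adjusted change was -0.21 (adjusted p = 0.425), at percentile 27.4 of like promoters. The gene to one side of CD68, MPDU1, had less H3K27ac in lambs, with means of 209.6 in lambs and 366 in fetuses (change -0.80, adjusted p = 0.000237), as did FXR2 next to it (change -0.58, adjusted p = 0.0111). On the other side of CD68, SOX15 and EIF4A1 were not called for H3K27ac (adjusted p = 0.207 and 0.535).

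MRC1, the macrophage mannose receptor, takes up glycoproteins and marks resident macrophages in many tissues. Its H3K27ac was 217 and 213 in lambs and 257 and 335 in fetuses, with both lambs below both fetuses. The change was -0.44 ± 0.15 (SE), with an adjusted p of 0.0294. Promoters of its level had a median change of -0.16, MRC1 lay at percentile 22 of them, and in the level-adjusted fit the change was -0.30 with an adjusted p of 0.154. The first call was lost with column totals (adjusted p = 0.0668), without lamb 1 (0.165), without lamb 2 (0.165) and without fetus 2 (0.162). H3K4me3 at MRC1 was 167, 285 and 222 in lambs and 102 and 104 in fetuses. Lambs were above fetuses, yet the change of 1.08 ± 0.43 (SE) had an adjusted p of 0.0809 and lay at percentile 60 of like promoters. Its level-adjusted change was 0.17, with an adjusted p of 0.805. The sign of the change under TMM scaling turned to -0.20 under the deposited scaling, where the median of all H3K4me3 promoters was -1.28. SLC39A12 and CACNB2, which follow MRC1 on 1 side, were not called for H3K27ac (adjusted p = 0.462 and 0.939).

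CD14 is the co-receptor that hands bacterial lipopolysaccharide to TLR4. It had the highest H3K4me3 of the members, 1030, 676 and 785 in lambs and 1017 and 694 in fetuses, and the groups overlapped. The change was -0.040 ± 0.28 (SE), with an adjusted p of 0.927, and turned to 0.091 with column totals. Promoters of its level had a median change of -0.51, CD14 lay at percentile 97.6 of them, and the level-adjusted change was 0.47, with an adjusted p of 0.452. Its H3K27ac also overlapped, at 307 and 293 in lambs and 316 and 237 in fetuses (change 0.13 ± 0.14 SE, adjusted p = 0.510; -0.19 under the deposited scaling). The level-adjusted change there was 0.36 (adjusted p = 0.0867), at percentile 86.6.

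H3K27me3 at CD14 was low, 65.5 and 41.2 in lambs from 20 and 10 reads, and 121 and 141 in fetuses from 36 and 42 reads. Both lambs were below both fetuses, and CD14 was the only member called lower for this mark. The change was -1.31 ± 0.44 (SE), with an adjusted p of 0.0490, and -1.54 with an adjusted p of 0.0360 in the level-adjusted fit, at percentile 2.6 of like promoters. The first call was lost with column totals (adjusted p = 0.0694), without lamb 2 (0.144), without fetus 1 (0.288) and without fetus 2 (0.471). The level-adjusted call was lost without fetus 1 (0.365) or fetus 2 (0.566) and under quantile normalization (0.0812).

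FCGR3A encodes CD16, the low-affinity receptor for immunoglobulin G of macrophages and natural killer cells. Its H3K27ac was 278 and 210 in lambs and 107 and 116 in fetuses, and the groups were far apart. The change was 1.11 ± 0.18 (SE), with an adjusted p of 0.000313, and 0.98 with an adjusted p of 0.00222 in the level-adjusted fit. It was larger than that of all 500 promoters of like level, whose median was 0.18. Without lamb 1, the library with the higher value, the adjusted p was 0.0626, and 0.317 in the level-adjusted fit.

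H3K4me3 at FCGR3A was 291, 398 and 259 in lambs and 94.8 and 96.7 in fetuses, again without overlap. The change was 1.69 ± 0.39 (SE), with an adjusted p of 0.00747, and 0.94 with an adjusted p of 0.272 in the level-adjusted fit, at percentile 95.6 of like promoters. Leaving out lamb 2 (adjusted p = 0.169) or lamb 3 (0.190) ended the first of these calls, as did the deposited scaling, with a change of 0.41 (0.370).

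H3K27me3 at FCGR3A was 298 and 256 in lambs and 151 and 151 in fetuses, so the mark of silent promoters was also higher in lambs. The change was 0.86 ± 0.27 (SE), with an adjusted p of 0.0389, and 0.81 with an adjusted p of 0.0739 in the level-adjusted fit, at percentile 94.8 of like promoters. The first call was lost under the deposited scaling (adjusted p = 0.135) and without lamb 1 (0.0645), lamb 2 (0.135), fetus 1 (0.261) or fetus 2 (0.286). FCGR3A belongs to a family of similar receptors, and its values are uncertain to the extent that reads of close copies were split between them, for which no rule was found in the labels or headers. FCGR2B, the neighbouring inhibitory receptor of the family, was listed for H3K27me3 alone (157 in lambs, 87.5 in fetuses, change 0.83, adjusted p = 0.114).

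DAP12, also called TYROBP, is the signalling adapter of TREM2 and other myeloid receptors. Its H3K27me3 was 233 and 161 in lambs, from 71 and 39 reads, and 73.9 and 40.4 in fetuses, from 22 and 12 reads. The lambs were clearly above the fetuses. The change of 1.80 ± 0.40 (SE) was the largest of the members in size, with an adjusted p of 0.00657, and 1.54 with an adjusted p of 0.0222 in the level-adjusted fit, larger than at all 500 promoters of like level. Under TMM scaling it was no longer called without lamb 2 (adjusted p = 0.139) or fetus 2 (0.166). The level-adjusted call was lost without lamb 1 (0.191), fetus 1 (0.0530) or fetus 2 (0.406) and under quantile normalization (0.0559).

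H3K27ac at DAP12 was 162 and 141 in lambs and 121 and 87.2 in fetuses. Lambs were above fetuses, with a change of 0.55 ± 0.21 (SE) that had an adjusted p of 0.0627. Its level-adjusted change was 0.31 (adjusted p = 0.328), at percentile 79.2 of like promoters. With column totals it passed, with an adjusted p of 0.0306, and without fetus 1 with 0.000112, while over all alternatives the change ran from 0.23 to 0.79 and the adjusted p reached 0.541. LRFN3, the gene next to DAP12, had more H3K27ac in lambs (264 in lambs, 146 in fetuses, change 0.85, adjusted p = 0.00058) and more H3K4me3 (397 in lambs, 199 in fetuses, change 0.99, adjusted p = 0.0372). In the level-adjusted fit the adjusted p of LRFN3 were 0.00218 for H3K27ac and 0.236 for H3K4me3. SDHAF1, beyond LRFN3, was not called for H3K27ac (adjusted p = 0.565). HCST, the adapter gene on the other side of DAP12, was not called (H3K27ac 213 in lambs and 185 in fetuses, change 0.20, adjusted p = 0.336).

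ITGAM encodes CD11b, the alpha chain of the integrin that binds complement-coated particles. Its H3K27ac was 127 and 116 in lambs and 82.4 and 80.4 in fetuses, without overlap, and its change of 0.57 ± 0.23 (SE) had an adjusted p of 0.0654. With column totals that p was 0.0348, without fetus 1 it was 0.00938 and without fetus 2 0.0136, while over all alternatives the change ran from 0.25 to 0.66 and the adjusted p reached 0.550. Its level-adjusted change was 0.28 (adjusted p = 0.384). H3K4me3 was 156, 297 and 294 in lambs and 115 and 108 in fetuses, with lambs above fetuses and a change of 1.09 ± 0.42 (SE, adjusted p = 0.0719). It passed without lamb 1 (adjusted p = 0.0391) and without fetus 1 (0.0305), and its sign turned to -0.19 under the deposited scaling. The level-adjusted change was 0.25 (adjusted p = 0.691). H3K27me3 overlapped, at 256 and 326 in lambs and 319 and 205 in fetuses (change 0.17 ± 0.26 SE, adjusted p = 0.685; 0.30 and 0.523 in the level-adjusted fit). The changes of ITGAM lay at percentiles 76.6, 64.8 and 72.6 of like promoters for H3K27ac, H3K4me3 and H3K27me3. ITGAD, a related integrin gene close by, had a mean H3K27ac of 102 in lambs and 61.3 in fetuses (change 0.73, adjusted p = 0.0467; 0.267 in the level-adjusted fit).

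EMR1 is the sheep entry for the gene of F4/80, the adhesion receptor used to mark macrophages in mice. Its H3K27me3 was 256 and 284 in lambs and 145 and 104 in fetuses, with both lambs above both fetuses. The change was 1.13 ± 0.29 (SE), with an adjusted p of 0.0159, and 0.99 with an adjusted p of 0.0408 in the level-adjusted fit, at percentile 98 of like promoters. The first call was lost without lamb 2 (adjusted p = 0.152), fetus 1 (0.0624) or fetus 2 (0.270). The level-adjusted call was lost without lamb 1 (0.106), fetus 1 (0.145) or fetus 2 (0.442) and under quantile normalization (0.0719).

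CD86 is a costimulatory ligand that antigen-presenting cells show to T cells. Its H3K27ac was 177 and 166 in lambs and 78.3 and 99.6 in fetuses, with a wide gap between the groups. The change was 0.95 ± 0.21 (SE), with an adjusted p of 0.00268, and 0.71 with an adjusted p of 0.0238 in the level-adjusted fit, at percentile 98.4 of like promoters. Without lamb 1 the adjusted p was 0.138 and without lamb 2 it was 0.0660, and the level-adjusted values were 0.501 and 0.366. Its neighbour ILDR1 had more H3K4me3 in lambs (341 in lambs, 150 in fetuses, change 1.10, adjusted p = 0.0472; 0.421 in the level-adjusted fit).

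**Figure D3:**
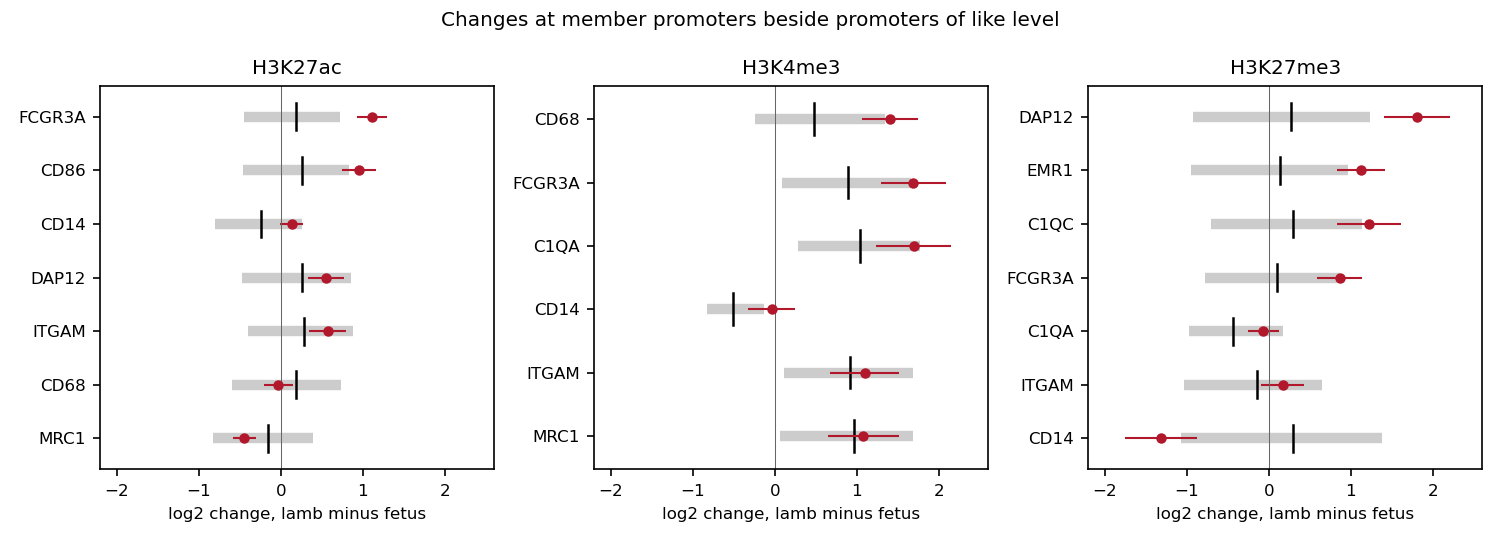
Log2 change, lamb minus fetus, of each member (red point, bar 1 SE each way) beside the 5th to 95th percentile (grey) and the median (black) of the 500 promoters nearest in level. For H3K27ac, 2 members lie above the grey range, for H3K4me3 3, and for H3K27me3 3 lie above it and CD14 below it.

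Among members listed for both H3K27ac and H3K27me3, the marks did not move in a single pattern. At FCGR3A both rose in lambs under TMM scaling, and H3K27ac alone passed in the level-adjusted fit. At DAP12 H3K27me3 rose, while the H3K27ac change of 0.55 did not pass. At CD14 H3K27me3 fell, while H3K27ac overlapped between the stages. At ITGAM neither was called. The FCGR3A calls of the 3 marks come from separate libraries, and the titles carry animal codes that recur across marks, so the marks share animals. In the authors' deposited table the fold changes, lamb over fetus, of FCGR3A were 2.194 for H3K27ac, 3.29 for H3K4me3 and 1.83 for H3K27me3, and that of CD14 for H3K27me3 was -2.44, where the minus sign marks a lower value in lambs.

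A wider set of 46 other myeloid genes, in 5 lists by role, was looked up in the same tables. For H3K27ac 21 were listed, with 2 called higher in lambs and 1 lower, where 11.4% and 17.7% of all promoters were. In the level-adjusted fit 3 were called higher and 0 lower, where 8.64% and 10.2% of all promoters were. Their median change was 0.26, against 0.018 over all promoters. NLRP3, the inflammasome sensor, averaged 162 in lambs and 103 in fetuses (change 0.65 ± 0.20 SE, adjusted p = 0.0204), and CD40, a costimulatory receptor, 166 in lambs and 111 in fetuses (0.58 ± 0.20 SE, adjusted p = 0.0360). Both calls were lost under the deposited scaling (adjusted p = 0.314 and 0.420), without lamb 1 (0.414 and 0.484) and without lamb 2 (0.178 and 0.185). FGR, a Src-family kinase of myeloid cells, was lower, at 223 in lambs and 320.2 in fetuses (-0.51 ± 0.15 SE, adjusted p = 0.0163; 0.187 without lamb 2 and 0.0546 without fetus 1). The 3 genes called higher in the level-adjusted fit were AIF1, CD80 and TLR4, with level-adjusted changes of 0.42, 0.43 and 0.44 and adjusted p of 0.0456, 0.0410 and 0.0120. All 3 of those calls were lost without lamb 1 (0.671, 0.317 and 0.228). TLR4, the partner of CD14, had a lower mean in lambs, 494 in lambs and 548 in fetuses, among strong promoters that were mostly lower in lambs.

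No call was made at the other named genes for H3K27ac. The uptake receptors MERTK and MSR1 averaged 219 and 170.4 in lambs and 185 and 139 in fetuses (adjusted p = 0.222 and 0.241). The cytokine receptor chain CSF2RB and the transcription factor IRF8 averaged 184 and 150.4 in lambs and 163 and 183 in fetuses (adjusted p = 0.442 and 0.256). LAPTM5, a lysosomal protein of blood cells, and NCF4, an oxidase subunit, averaged 284 and 299 in lambs and 258 and 357 in fetuses (adjusted p = 0.519 and 0.159). With the deposited scaling the signs of MERTK, CSF2RB and LAPTM5 turned.

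For H3K4me3, 21 of the 46 genes were listed, 3 were called higher in lambs and 0 lower, where 8.33% and 1.9% of all promoters were, and 0 were called by limma in the level-adjusted fit, where 2 had an unadjusted p under 0.05. The median change was 0.77, and the level-adjusted median -0.036. MERTK, which binds dying cells, averaged 204 in lambs and 32.7 in fetuses (2.51 ± 0.61 SE, adjusted p = 0.00993). TREM2, a lipid receptor that signals through DAP12, averaged 253 in lambs and 78.4 in fetuses (1.62 ± 0.46 SE, adjusted p = 0.0241). NLRP3 averaged 292 in lambs and 127 in fetuses (1.18 ± 0.39 SE, adjusted p = 0.0447; sign turned to -0.096 under the deposited scaling). All 3 calls were lost without lamb 2 (0.142, 0.298 and 0.362) and without lamb 3 (0.423, 0.420 and 0.404), and TREM2 also without fetus 2 (0.0648) and under the deposited scaling (0.433). The call of NLRP3 was also lost without lamb 1 (0.0637) or fetus 1 (0.0522), with median-of-ratios size factors (0.0523) and after thinning reads to the total of the smallest library (0.0549). Uncalled were the transcription factor IRF8 (297 in lambs, 257 in fetuses), LAPTM5 and the Fc receptor chain FCER1G (288 and 255 in lambs, 138 and 148 in fetuses), the protease CTSS (191 in lambs, 125 in fetuses), and TLR4 and CD40 (717 and 412 in lambs, 835 and 389.6 in fetuses).

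For H3K27me3, 15 of the 46 genes were listed and limma called 0 in either direction in both fits, while 9 had an unadjusted p under 0.05 with TMM scaling and 6 in the level-adjusted fit. Their median change was 0.66, with 12 of 15 positive, as were 51.6% of all promoters. Both lambs stood above both fetuses at 10 of 15, where 30.5% of all promoters did so. CSF3R, the receptor of granulocyte colony-stimulating factor, averaged 308 in lambs and 183 in fetuses (0.72 ± 0.27 SE, adjusted p = 0.0738). PTPRC, the leukocyte common antigen CD45, averaged 246 in lambs and 153 in fetuses, and NLRP3 198 in lambs and 124 in fetuses (adjusted p = 0.107 and 0.157). The uptake receptors TREM2 and TIMD4 averaged 352 and 133 in lambs and 286 and 84.1 in fetuses (adjusted p = 0.392 and 0.239). The cytokine TNF averaged 181 in lambs and 146 in fetuses (adjusted p = 0.529).

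Markers of other cell types moved as well, and their part in the member results was not tested. Of 18 lymphocyte markers 9 were listed for H3K27ac, with 4 called higher in lambs and 0 lower, where 11.4% and 17.7% of all promoters were. In the level-adjusted fit 3 were called higher and 0 lower, where 8.64% and 10.2% of all promoters were. The summed value of the 9 was 1630 to 1826 in lambs and 1219 to 1277 in fetuses. None of the listed markers was at 0 in a whole group. Those called under TMM scaling included CD8A (166 in lambs, 73.2 in fetuses, change 1.19 ± 0.23 SE, adjusted p = 0.00112), RHOH (263 in lambs, 116 in fetuses, 1.17 ± 0.16 SE, adjusted p = 8.3e-05) and CD3D (138 in lambs, 81.9 in fetuses, 0.71 ± 0.25 SE, adjusted p = 0.0425). CD3D did not pass in the level-adjusted fit, with a change of 0.43 (adjusted p = 0.235). Without lamb 1, the p of CD8A was 0.0732 and that of CD3D 0.694; without lamb 2 that of CD3D was 0.0644, and under the deposited scaling 0.263. In the level-adjusted fit the H3K27ac call of CD8A was lost without lamb 1 or lamb 2, with changes of 0.84 and 0.88. That of RHOH was lost without lamb 1, with a change of 0.998. For H3K4me3, with sums of 1240 to 2168 in lambs and 584 to 935 in fetuses, 3 of 8 listed were called higher and 0 lower. The shares over all promoters were 8.33% and 1.9%. CD3D and CD3G had nearly equal values here and for H3K27me3 (393 and 397 in lambs, 385 and 380 in fetuses). Their calls may thus not be separate, which was not tested, and both enter the sums. The genes called were NKG7, CD3D and CD3G, with means of 203, 281 and 279.6 in lambs and 65.9, 112 and 113 in fetuses. Their adjusted p were 0.0310, 0.0357 and 0.0370, all lost without lamb 2 (0.236, 0.311 and 0.328), without lamb 3 (0.420, 0.453 and 0.453) and without fetus 2 (0.123, 0.0992 and 0.0972). Under the deposited scaling the changes of NKG7 and CD3D were 0.37 and 0.013 (adjusted p = 0.40 and 0.980), and the sign of CD3G turned to -0.0062. After level adjustment limma called 0 of 8, and 0 had an unadjusted p under 0.05. For H3K27me3 1 of 7 was called higher, where 4.42% of all promoters were. This was NKG7, at 275 in lambs and 129 in fetuses (1.04 ± 0.31 SE, adjusted p = 0.0309). The level-adjusted fit called 0 of 7, with NKG7 at an adjusted p of 0.0717. The call under TMM scaling was lost under the deposited scaling (0.0664). It was also lost without lamb 1, lamb 2, fetus 1 or fetus 2, with changes of 0.64, 1.43, 1.18 and 0.87.

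Adipocyte markers went the other way. For H3K27ac 5 of 10 were called lower in lambs, where 17.7% of all promoters were. The summed value of the 10 was 2142 to 2232 in lambs and 3171 to 3498 in fetuses. The largest changes were those of UCP1, the uncoupling protein of brown fat (143 in lambs, 275 in fetuses, -0.94 ± 0.15 SE, adjusted p = 0.000242), FABP4 (316 in lambs, 613 in fetuses, adjusted p = 0.000312) and PLIN1 (304 in lambs, 583 in fetuses, adjusted p = 8.6e-05). The level-adjusted fit called 4 of 10 lower, where 10.2% of all promoters were. There the changes of UCP1, FABP4 and PLIN1 were -0.97, -0.44 and -0.46. The level-adjusted calls of FABP4 and PLIN1 were lost without lamb 1 or lamb 2. Their changes were then -0.50 and -0.21 for FABP4, and -0.39 and -0.37 for PLIN1. ADIPOQ went from -0.41 under TMM scaling, which was called, to 0.021, which was not. For H3K4me3 2 of 10 were called lower, where 1.9% of all promoters were. These were PLIN1 (419 in lambs, 990.2 in fetuses, adjusted p = 0.00530) and PLIN4 (247 in lambs, 522 in fetuses, adjusted p = 0.0300). The call of PLIN1 was lost without lamb 3 (0.190), and that of PLIN4 without lamb 1 (0.0722), lamb 2 (0.126), lamb 3 (0.416) or fetus 1 (0.104) and with column totals (0.0602). After level adjustment limma called 0 of 10, and 3 had an unadjusted p under 0.05. Of 4 listed for H3K27me3 limma called 0, and 0 had an unadjusted p under 0.05 with TMM scaling and 1 in the level-adjusted fit.

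Stromal genes were mixed for H3K27ac, with 2 of 7 called higher in lambs and 3 lower, where 11.4% and 17.7% of all promoters were. In the level-adjusted fit 1 was called higher and 2 lower, where 8.64% and 10.2% of all promoters were. Summed values were 1489 to 1637 in lambs and 1889 to 2261 in fetuses. COL3A1 and DCN fell to 271 and 229.9 in lambs, against 686 and 393 in fetuses, and PDGFRA rose to 216 in lambs, against 138 in fetuses. The call of PDGFRA was lost under the deposited scaling (change 0.32, adjusted p = 0.272), without lamb 1 (0.0889) and without lamb 2 (0.241). The level-adjusted calls of DCN and PDGFRA were lost without lamb 1 or lamb 2. Their changes were then -0.34 and -0.55 for DCN, and 0.61 and 0.37 for PDGFRA. COL3A1 also fell for H3K4me3 (563 in lambs, 1192 in fetuses, adjusted p = 0.0477), the only call of 6 listed, where 1.9% of all promoters were called lower. That call was lost without lamb 1 (0.144), lamb 2 (0.224) or lamb 3 (0.449), without fetus 2, where the change was -0.12 (0.809), with column totals (0.0535), median-of-ratios size factors (0.0527) or a minimum mean of 100 (0.0553), and after thinning (0.0587). Of 7 endothelial genes 3, EMCN, NOS3 and TEK, were called lower for H3K27ac, where 17.7% of all promoters were. They averaged 260.1, 249.3 and 392.5 in lambs and 381, 347 and 508.5 in fetuses. The summed values of the 7 were 1823 to 1892 in lambs and 2060 to 2246 in fetuses. In the level-adjusted fit limma called 0 of these 7, and 0 had an unadjusted p under 0.05. The calls of NOS3 and TEK were lost with column totals (0.0535 and 0.0738), without lamb 1 (0.104 and 0.113) and without lamb 2 (0.111 and 0.221), that of NOS3 also without fetus 1 (0.122) and that of TEK without fetus 2 (0.105). Limma called 0 of 7 endothelial genes for H3K4me3, where 3 had an unadjusted p under 0.05, 0 of 1 for H3K27me3, where 1 did, and 0 of 3 stromal genes for H3K27me3, where 2 did.

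Of 11 granulocyte and mast cell genes 2 were listed for H3K4me3, with 0 called by limma and 1 at an unadjusted p under 0.05. For H3K27ac 5 were listed, with 1 called higher and 1 lower, where 11.4% and 17.7% of all promoters were. The level-adjusted fit called 1 higher and 0 lower, where 8.64% and 10.2% of all promoters were, with CPA3 at an adjusted p of 0.0899. Under TMM scaling KIT was higher (282 in lambs, 217 in fetuses, adjusted p = 0.0413) and CPA3 lower (209.2 in lambs, 297 in fetuses, adjusted p = 0.0175). Both calls were lost without lamb 1 (0.201 and 0.195) and without lamb 2 (0.410 and 0.0561), that of CPA3 also without fetus 2 (0.0747) and that of KIT under the deposited scaling (0.873). The level-adjusted call of KIT was also lost without lamb 1 or lamb 2, with changes of 0.55 and 0.40. For H3K27me3 ELANE, neutrophil elastase, was lower under TMM scaling (195 in lambs, 348 in fetuses, adjusted p = 0.0293). It was the only call of 5 listed, where 8.83% of all promoters were called lower. In the level-adjusted fit ELANE did not pass (adjusted p = 0.0707). The call was lost with column totals (0.0578) and under the deposited scaling (0.0580). It was also lost without lamb 2, fetus 1 or fetus 2, with changes of -0.71, -0.92 and -0.77.

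**Figure D4:**
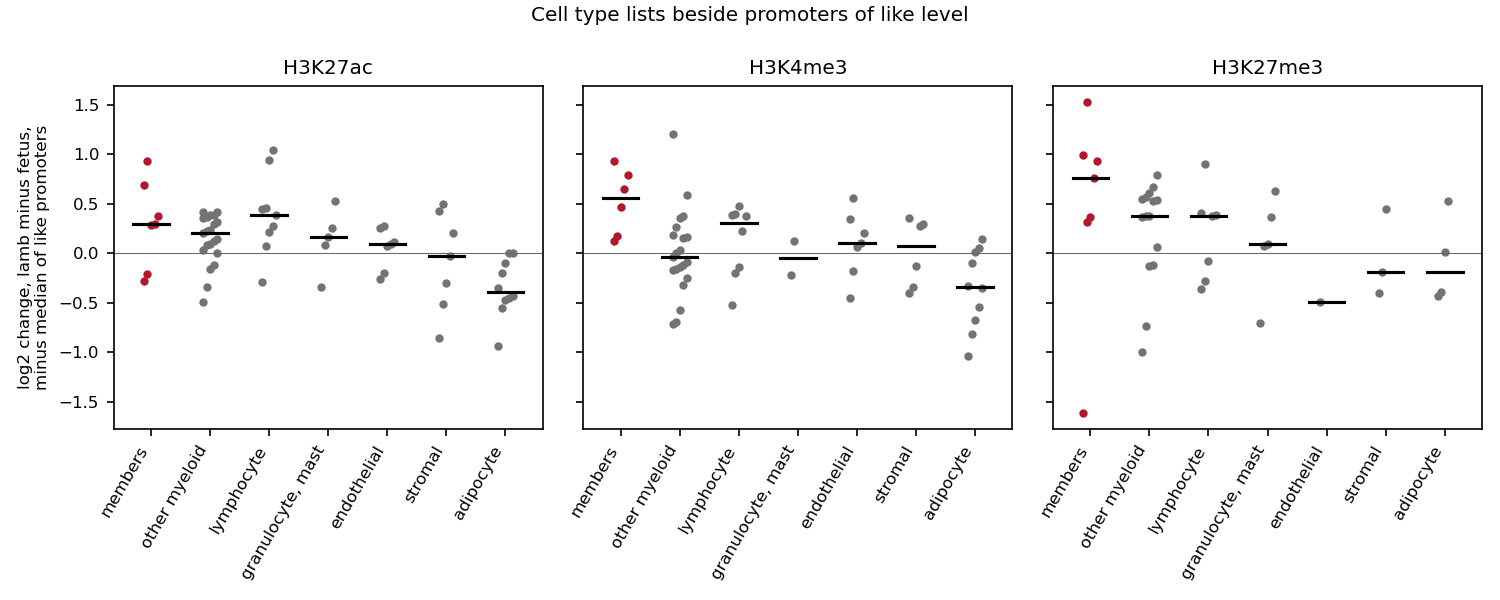
Log2 change, lamb minus fetus, less the median of the 500 promoters nearest in level, for each listed gene of the members (red) and of the other lists (grey), with the list's median as a bar. The members' medians are 0.29, 0.56 and 0.76 for H3K27ac, H3K4me3 and H3K27me3, and the adipocyte medians are -0.40, -0.35 and -0.19.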

How the data were processed

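Native chromatin of perirenal fat was immunoprecipitated for each mark and sequenced as single-end reads, per the labels' protocols. Mapping to the sheep build Oar_v3.1 used CLC Genomics Workbench 7.0, per the series design. Other tools listed in the submitters' processing notes are MACS, edgeR and bedtools 2.19.0, with no role stated.

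The authors deposited a promoter table and a peak region table per mark. The deposited promoter values are a scaled signal: in each library they are whole multiples, within 0.02, of the value of 1 read, which was 0.369 to 0.571 for H3K27ac, 0.565 to 1.34 for H3K4me3 and 3.43 to 3.57 for H3K27me3. The basis of this factor and how wide the windows are is not given, so levels were ranked within a table on the assumption of windows of equal width. The columns of the deposited peak tables are headed as expression values and were taken here as counts of reads per region. They were used for depth alone, from 7233767 to 58333449 reads in regions per library, because no annotation of their build was used here. The authors also deposited a p-value and a signed fold change per promoter from a test headed EDGE, treated here as a score, with a negative value where lambs were lower, per the file headers; in the H3K27me3 table these 2 headers are exchanged, as the values show, and a blank line was left out.

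Within a mark, libraries were grouped by stage. Values were scaled with TMM factors (edgeR 4.0.16), put on the log2(value + 1) scale and tested with limma 3.58.1 (R 4.3.3, trended variance, two-sided, Benjamini-Hochberg over the table, threshold 0.05). The same test was run after cyclic loess. The design foresaw count tests on recovered reads; the deposited values were kept as a scaled signal, so these were not run. With 2 against 2 libraries an exact permutation test cannot go below p = 0.333, and with 3 against 2 not below 0.2, so none is given. Intervals of reads would cover counting error only, and none is printed.

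The members and lists were chosen with earlier results of these data known. All 10 members are named; of each list of other myeloid genes up to 4 called in either fit, or the 2 strongest where fewer than 2 were called; of other cell types up to 3 called genes. Some genes that this rule takes in are not reported here. Gene neighbours came from the RefSeq order of ARS-UI_Ramb_v3.0, with no coordinates used. Up to 2 genes on each side of a member were looked up, and not all of them are named. The design text calls the libraries biological replicates. Replicate numbers mark different animals at each stage and do not pair them. Alternatives were other scalings, a pseudocount of 10, a minimum mean value of 100, quantile normalization, 200 or 1000 promoters of like level, thinning, a replicate block and leaving out libraries.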

Additional observations from a re-analysis of the deposited data

How the results depend on the processing

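Leaving out a library moved many counts, and a lone library left at a stage is assumed to vary like the others. For H3K27ac, members called higher ranged from 0 to 5 (main 2) and lower from 0 to 1 (main 1), and promoters called from 1177 to 5846 (main 3849); in the level-adjusted fit these were 0 to 4 (main 2), 0 to 1 (main 0) and 384 to 5260 (main 2486). For H3K4me3, members higher ranged from 0 to 3 (main 3) and promoters called from 12 to 5680 (main 1322); level-adjusted, 0 to 3 (main 0) and 0 to 2760 (main 0). For H3K27me3, members higher ranged from 0 to 4 (main 4), lower from 0 to 1 (main 1) and promoters from 0 to 1405 (main 839); level-adjusted, 0 to 4 (main 2), 0 to 1 (main 1) and 52 to 1101 (main 394). Without lamb 2 limma thus called 0 H3K27me3 promoters, so a member lost there went with all others.

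Column totals shifted the median change of all promoters to 0.11 (H3K27ac), 0.13 (H3K4me3) and 0.13 (H3K27me3), and gave 4 members higher and 0 lower for H3K27ac and 0 lower for H3K27me3. The deposited scaling shifted it to -0.30 for H3K27ac and -1.28 for H3K4me3, with 0 H3K4me3 members higher, 5678 H3K4me3 and 540.0 H3K27me3 promoters called. Without H3K4me3 lambs 2 and 3 together, 0 members and 0 promoters were called. The minimum mean of 100 removed CD14 from the H3K27me3 table, leaving 0 lower in both fits. Quantile normalization gave 44 H3K4me3 and 102 H3K27me3 promoters called, with 0 H3K27me3 members higher and 0 lower. With the replicate block, which pairs animals by number alone and in effect drops lamb 3 for H3K4me3, 4 H3K27ac members were called higher and 3874 promoters in the level-adjusted fit, and 0 members and 5 promoters for H3K4me3. Deviations of lamb 1 and fetus 1 correlated at 0.277, -0.394 and 0.0988 over promoters of H3K27ac, H3K4me3 and H3K27me3. The block changed no other count by over 1.5 times. Count tests in edgeR and DESeq2 were not run. The cause of these shifts was not tested.

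Signs that turned were those of uncalled values, except NLRP3 and CD3G. With column totals they were CD68 H3K27ac (0.060), CD14 H3K4me3 (0.091) and C1QA H3K27me3 (0.044). With the deposited scaling they were CD14 (-0.19), MERTK (-0.071), CSF2RB (-0.13) and LAPTM5 (-0.19) for H3K27ac, and MRC1 (-0.20), ITGAM (-0.19), IRF8 (-1.03), LAPTM5 (-0.22), FCER1G (-0.51), CTSS (-0.51), NLRP3 (-0.096), CD40 (-1.20) and CD3G (-0.0062) for H3K4me3. Without lambs 2 and 3 together they were CD14 (0.31), IRF8 (-0.094) and TLR4 (0.19), and ITGAM (-0.011) in the level-adjusted fit. Thinning turned MRC1 H3K4me3 (-0.11, level-adjusted). Leaving out a library turned the sign of further uncalled changes, within these ranges: for H3K27ac CD68 (-0.075 to 0.026), CD14 (-0.065 to 0.34), CSF2RB (-0.030 to 0.43) and LAPTM5 (-0.053 to 0.31); for H3K4me3 CD14 (-0.31 to 0.24; level-adjusted -0.0083 to 0.94), IRF8 (-0.18 to 0.68), TLR4 (-0.52 to 0.10) and CD40 (-0.015 to 0.18); and for H3K27me3 ITGAM (-0.15 to 0.47).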
